A study of Mus musculus with 48 samples.

Results

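Collagen genes were followed through the cerebellum and the inferior olive of mice carrying expanded ATXN1, the cause of spinocerebellar ataxia type 1 (SCA1). Members were all genes whose symbol had the form of a collagen alpha chain (Col, a type number, a, a chain number), leaving out Col8a1 and Col8a2, which gave 42 genes of the 22979 to 23109 distinct names in each of 8 expression tables. Each table held 1 tissue of 1 model at 1 age, with 3 wild-type (WT) and 3 mutant libraries, 48 libraries in all, and every library came from a male mouse. ATXN1-82Q Tg mice (Tg, FVB/NJ background) carry a human ATXN1 transgene with an expanded glutamine tract driven by the Purkinje cell promoter Pcp2, so the transgene is expressed in Purkinje cells and not across the brain. Atxn1-154Q/2Q KI mice (KI, C57BL/6J background) carry an expanded tract in 1 copy of the mouse Atxn1 gene, under its own promoter, beside 1 copy of normal length. Controls were WT mice of the matching background, WT/FVB or WT/C57, and tissue was taken at 5 and at 12 weeks of age. The inferior olive, the brainstem nucleus whose axons climb onto Purkinje cells, was dissected by landmarks, and polyadenylated RNA was sequenced. The 2 models differ in strain as well as in allele, and these cannot be told apart.

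Collagens are the main structural proteins of the extracellular matrix, and each molecule is a rope of alpha chains wound around each other. Fibrillar collagens (types I, II, III, V, XI, XXIV and XXVII) form the fibres of connective tissue. In the brain most of that tissue lies in the meninges and along larger vessels, where fibroblasts make types I, III, V and VI. Type IV chains build the sheet-like network of basement membranes under the endothelium and around the brain surface, and type VI chains form beaded filaments that tie cells to that matrix. Fibril-associated collagens such as types IX, XII, XVI and XIX sit on other fibrils or on basement membranes. Neurons make a few members themselves. Col18a1 encodes a multiplexin whose C-terminal fragment is endostatin, and in cerebellum it is known as a product of Purkinje cells that takes part in forming climbing fibre synapses. Col25a1 encodes a transmembrane collagen of neurons that is shed from the membrane, and Col19a1 and Col23a1 are also made by neurons.

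Values were gene-level FPKM (fragments scaled to transcript length and library total) that had been normalized within each table of 6 libraries, so WT and mutant were compared inside a table and levels in different tables are set side by side without a test. Depth per library is unknown, because the tables hold no counts. The labelled tissues carried their own markers, since Htr5b, a serotonin receptor gene of the inferior olive, ranged from 2.25 to 9.55 FPKM in inferior olive libraries and reached at most 0.322 in cerebellum, while Pcp2 ranged from 219 to 851 FPKM in cerebellum. Within inferior olive, Htr5b was lower in KI than in WT/C57, at 2.80 to 3.32 against 6.81 to 9.55 FPKM at 5 weeks. At 12 weeks it was 2.25 to 2.81 in KI against 6.47 to 9.02 in WT/C57, and Htr5b was called lower there. The cause was not tested. By Purkinje cell, granule neuron or medulla markers, a pair of libraries stood apart from the rest of their tables. In the Tg inferior olive at 5 weeks, Tg library 2 held Pcp2 at 22.0 FPKM against 1.28 to 5.44 in the other 5 and a summed level of 6 granule neuron markers of 93.4 against 43.3 to 51.4. In the KI cerebellum at 12 weeks, WT library 1 had a summed level of medulla markers of 17.5 FPKM against 7.30 to 9.23 in the other 5. Of the 7 markers listed, 6 had an entry of their own there and 2 had a mean of at least 0.5 FPKM, so few genes carry this sum. Results that turned, lost or gained a call, or moved by over 1.5 times without either of these 2 libraries are given both ways. Markers of choroid plexus epithelium set other libraries apart, and those were not treated in that way throughout. The marker sum was 96.3 FPKM in Tg library 3 of the Tg cerebellum at 5 weeks, against 956 to 1931 in the other 5. It was 63.2 in KI library 1 of the KI cerebellum at 12 weeks, against 569 to 2083. In the Tg inferior olive at 12 weeks it was 217 in Tg library 3, against 1024 to 4372. Some members share a table entry with a neighbour and were left out there, namely Col20a1 with Arfgap1 in all 8 tables, Col23a1 with Phykpl in both cerebellum tables at 12 weeks, and Col2a1 with Senp1 in both inferior olive tables at 12 weeks.

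The 250 bases upstream of the start site are printed for the genes on which the main changes turned: Col18a1 and Col5a1, which were lower in Tg cerebellum, and Col1a2, which was higher there at 12 weeks. Sequences are those of RefSeq on GRCm38.p6, the build of the tables (mm10), written 5′ to 3′ on the strand of the gene. Capitals mark the Sp1 box GGGCGG and the CCAAT box CCAAT, on either strand. Col18a1 has an outer start, whose window is chr10:77166531-77166780 on the minus strand, and an inner start, whose window is chr10:77113706-77113955. The Col5a1 window is chr2:27886175-27886424 on the plus strand and the Col1a2 window chr6:4505368-4505617 on the plus strand. The Col1a2 window precedes the RefSeq start, which lies inside the longer gene model of GENCODE that gives the gene extent used below.
Col18a1, outer start: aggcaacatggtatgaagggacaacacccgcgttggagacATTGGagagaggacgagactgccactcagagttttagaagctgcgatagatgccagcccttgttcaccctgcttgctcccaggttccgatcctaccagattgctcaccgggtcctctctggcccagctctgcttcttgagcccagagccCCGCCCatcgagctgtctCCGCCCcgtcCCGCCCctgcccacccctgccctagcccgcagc
Col18a1, inner start: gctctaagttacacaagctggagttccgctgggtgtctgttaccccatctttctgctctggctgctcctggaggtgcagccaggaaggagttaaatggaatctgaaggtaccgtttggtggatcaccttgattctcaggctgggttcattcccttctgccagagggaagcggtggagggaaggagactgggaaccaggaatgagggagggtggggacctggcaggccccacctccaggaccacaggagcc
Col5a1: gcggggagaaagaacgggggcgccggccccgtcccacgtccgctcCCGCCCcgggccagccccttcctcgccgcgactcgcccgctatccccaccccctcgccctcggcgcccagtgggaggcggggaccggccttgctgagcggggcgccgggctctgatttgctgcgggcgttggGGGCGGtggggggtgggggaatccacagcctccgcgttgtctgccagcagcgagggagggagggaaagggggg
Col1a2: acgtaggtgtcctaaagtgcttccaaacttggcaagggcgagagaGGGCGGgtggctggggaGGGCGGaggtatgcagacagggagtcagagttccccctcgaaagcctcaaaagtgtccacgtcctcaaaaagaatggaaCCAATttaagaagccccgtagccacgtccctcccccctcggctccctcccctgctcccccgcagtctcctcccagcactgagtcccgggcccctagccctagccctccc

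The outer Col18a1 window held 3 Sp1 boxes and 1 CCAAT box, whereas the inner window held 0 of either, and the tables give 1 value per gene, so the starts cannot be followed separately. The Col5a1 window was the richest of these in G and C, at 76.4% of its bases, and held 2 Sp1 boxes. The Col1a2 window held 2 Sp1 boxes and 1 CCAAT box. Windows were at hand for 33 of the 42 members (36 windows), and an Sp1 box was present in 20 of these (55.6%) against 32.7% of 32851 windows over all genes, while a CCAAT box was present in 36.1% against 33.8%. The octamers TGAATGAA, TGAATGGA, TCAATGAA and TCAATGGA, the letters bound by Capicua, the repressor that ATXN1 partners, occurred in 0 member windows and in 3.19% of all windows. With a share that low, 36 windows are too few to tell 0 from it. Bases beyond these windows were not searched, so a lack of such sites in collagen genes cannot be read from this. Type IV genes are laid out head to head. The annotated first exons of Col4a1 (minus strand) and Col4a2 (plus strand) share 22 bases at chr8:11312805-11312826, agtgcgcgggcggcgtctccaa on the plus strand, and whether the library preparation kept strand is not given in the sources used here.

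In WT cerebellum, Col18a1 had the highest FPKM of all members in each of the 4 tables, with group means of 17.3 to 23.0, whereas its means in WT inferior olive were 1.86 to 2.44. Col9a3, a chain of the fibril-associated type IX collagen, came next in the 4 cerebellum tables, at 11.4 to 16.3 FPKM. The inferior olive had no leading member common to its 4 tables, with Col9a3 first in 3 of them and Col4a1, a basement membrane chain, first in WT/C57 mice at 5 weeks, at 9.0 FPKM, beside Col1a2 at 8.96. Members whose WT means were higher in every inferior olive table than in every cerebellum table included Col25a1 (7.88 to 8.66 FPKM in inferior olive, 0.982 to 2.74 in cerebellum), the fibrillar chain Col11a2 (6.17 to 8.34 and 1.82 to 2.50), its partner chain Col11a1 (2.59 to 2.93 and 0.597 to 0.710), Col16a1 (3.64 to 5.08 and 1.28 to 2.43) and Col24a1 (0.823 to 0.921 and 0.0890 to 0.167). Members with the opposite order, besides Col18a1, included Col5a1 (0.785 to 1.01 FPKM in inferior olive, 2.19 to 2.49 in cerebellum), Col17a1 (0.0631 to 0.185 and 0.512 to 0.967) and Col23a1 (1.68 to 1.97, and 4.04 to 5.37 in the 2 cerebellum tables that list it alone). Col4a6, a type IV chain near the floor, also had higher means in cerebellum (0.539 to 0.802 FPKM) than in inferior olive (0.364 to 0.516). The type I, III and VI chains tested and the type IV chains Col4a1 and Col4a2 did not separate the tissues. Col1a2 means spanned 6.23 to 8.96 FPKM in inferior olive and 6.70 to 10.5 in cerebellum, and Col4a1 means spanned 4.01 to 9.0 and 4.18 to 8.57.

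**Figure D1:**
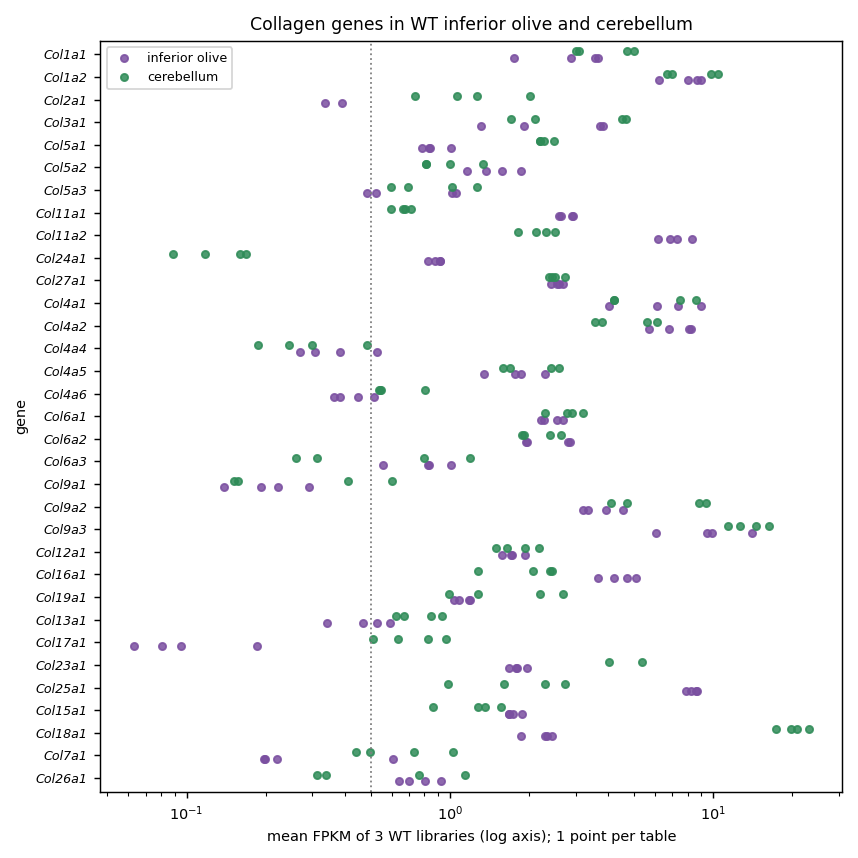
Mean FPKM of 3 WT libraries (log axis) for the 33 collagen genes tested in at least 1 table, with 1 point per table for inferior olive and cerebellum and a dotted line at 0.5 FPKM. Col18a1 lies at 17.3 to 23.0 in cerebellum and 1.86 to 2.44 in inferior olive, and Col25a1 has the reverse order.

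Whether each member differed between mutant and WT was tested within each table with limma on log2(FPKM + 0.1), over every gene whose group means both reached 0.5 FPKM, and a gene was called at a Benjamini-Hochberg adjusted p below 0.05 over all genes tested. Between 25 and 30 members passed that floor in a table, 33 passed in at least 1 table and 20 in all 8. The 9 that passed in none were Col4a3, Col6a4, Col6a5, Col6a6, Col10a1, Col14a1, Col20a1, Col22a1 and Col28a1. Called members were confined to 3 of the 4 cerebellum tables. Of 29 members tested in the Tg cerebellum at 5 weeks, 2 were called, against 4.16% of all genes, and both were lower (Col18a1 and Col5a1), against 3.73% of genes called lower. At 12 weeks 5 of 27 were called, against 7.58% of all genes, with Col18a1 and Col5a1 lower and Col1a1, Col1a2 and Col16a1 higher (5.29% and 2.29% of genes called lower and higher). In the KI cerebellum at 12 weeks 3 of 25 were called, against 5.75% of all genes, with Col18a1 and Col9a2 lower and Col19a1 higher (3.68% and 2.07% of genes).

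By limma, 0 members were called in the KI cerebellum at 5 weeks (30 tested, 0.0075% of all genes called) or in any inferior olive table. Background there was 0.0146% of genes in KI at 5 weeks (26 members tested), 1.53% in KI at 12 weeks (28 tested), 0% in Tg at 5 weeks (26 tested) and 0% in Tg at 12 weeks (27 tested). At an unadjusted p below 0.05 the counts in those tables were 3 members in the KI cerebellum at 5 weeks (3.72% of all genes), 3 in the KI inferior olive at 5 weeks (6.04%), 1 in the KI inferior olive at 12 weeks (13.3%), 8 in the Tg inferior olive at 5 weeks (6.58%) and 0 in the Tg inferior olive at 12 weeks (3.45%). All 3 of the KI and all 8 of the Tg inferior olive members at 5 weeks were higher in mutants (3.18% and 4.09% of all genes). The median log2 fold change over tested members was 0.13 against -0.02 for all genes in the Tg cerebellum at 12 weeks and 0.10 against -0.01 in the KI inferior olive at 5 weeks. In the Tg inferior olive at 5 weeks it was 0.11, and 0.07 without Tg library 2.

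**Figure D2:**
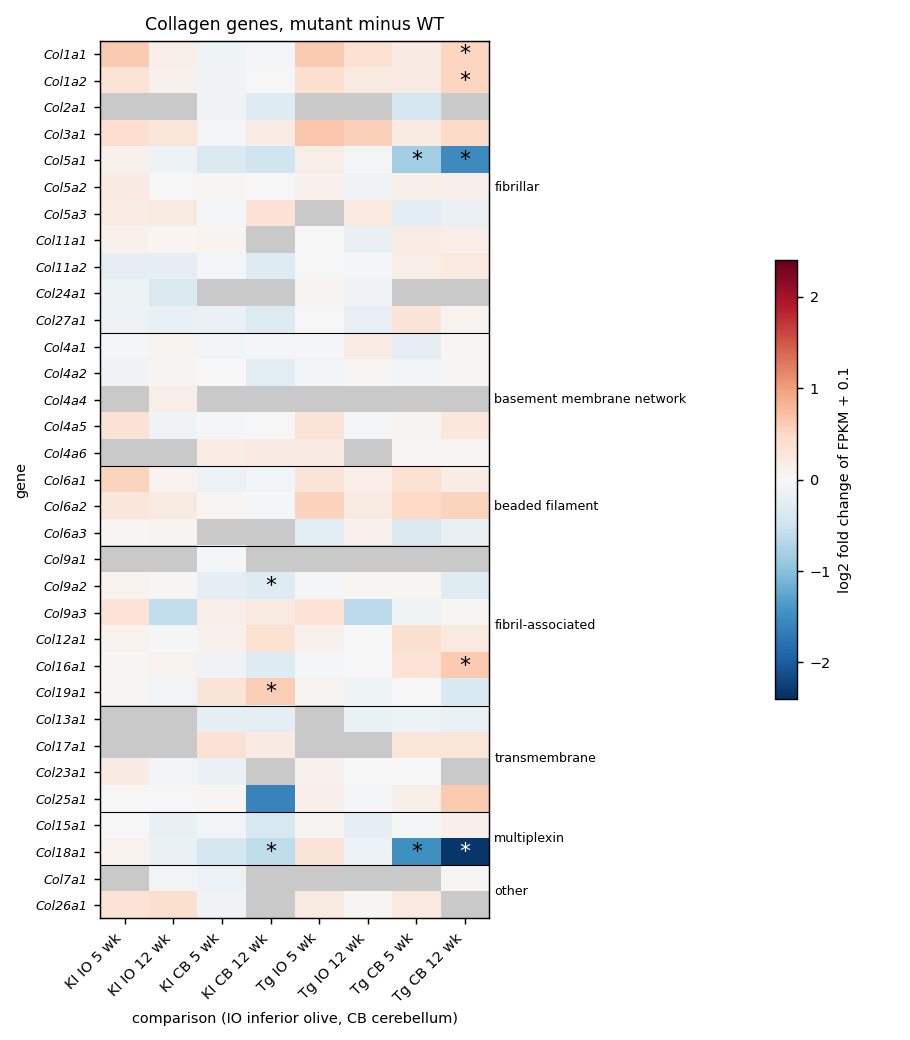
Log2 fold change (mutant minus WT) of the 33 collagen genes tested in at least 1 of 8 tables, grouped by structural class, with stars at genes called and grey cells where a gene was not tested. Col18a1 and Col5a1 stand out as lower in Tg cerebellum, at -2.34 and -1.53 at 12 weeks.

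Col18a1 (chr10:77052178-77166548, minus strand) was the member with the largest change. In the Tg cerebellum at 5 weeks its FPKM was 21.8, 24.6 and 22.7 in WT and 8.91, 7.99 and 7.85 in Tg. At 12 weeks WT libraries held 22.7, 21.5 and 18.0 and Tg libraries 3.75, 4.24 and 4.04. At both ages every Tg library lay far below every WT library, with a Tg to WT ratio of means of 0.358 at 5 weeks and 0.193 at 12 weeks. The log2 fold change was -1.47 ± 0.06 (SE, adjusted p = 2.52e-06) at 5 weeks and -2.34 ± 0.10 (SE, adjusted p = 2.61e-05) at 12 weeks. Col18a1 ranked 15 of 13325 genes by size of change at 5 weeks and 16 of 13465 at 12 weeks. As a share of the summed FPKM of all members, it went from 19.1 to 19.3% in WT to 7.33 to 7.80% in Tg at 5 weeks, and from 20.2 to 24.6% to 4.63 to 5.05% at 12 weeks.

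The KI cerebellum showed the same direction with a smaller size. At 5 weeks Col18a1 stood at 20.2, 20.0 and 19.1 FPKM in WT and 16.0, 15.3 and 13.2 in KI. These groups did not overlap, with a ratio of 0.751, and the change of -0.41 ± 0.09 was not called (adjusted p = 0.865). At 12 weeks WT libraries held 13.8, 18.7 and 19.5 FPKM and KI libraries 10.7, 12.2 and 11.0, again without overlap. That change was called, at -0.60 ± 0.13 with a ratio of 0.651 (adjusted p = 0.0375), but the call was lost without WT library 2 (0.0618), WT library 3 (0.0999) or any of KI library 1 (0.145), 2 (0.0997) and 3 (0.131). Without WT library 1, the library with the high medulla markers, it was -0.75 with an adjusted p of 0.00122.

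In the inferior olive Col18a1 was not called in any table. KI values were 1.96, 1.69 and 1.93 FPKM in WT and 2.04, 1.96 and 1.89 in KI at 5 weeks, and 2.50, 2.11 and 2.41 in WT and 2.16, 2.16 and 1.96 in KI at 12 weeks. The groups overlapped at both ages, with log2 differences of 0.08 and -0.15. In the Tg inferior olive at 5 weeks WT stood at 2.61, 2.39 and 2.32 FPKM and Tg at 2.56, 3.82 and 2.90. The highest of these was Tg library 2, the library with cerebellar markers, and the difference of 0.31 became 0.15 without it. At 12 weeks the Tg table gave 2.65, 2.39 and 1.87 in WT and 2.00, 1.90 and 2.34 in Tg.

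Col5a1 (chr2:27886425-28039514, plus strand) encodes a type V chain that starts and sizes type I fibrils, and it was placed on the list of meningeal fibroblast collagens, yet it was lower in the tables in which Col18a1 was lower. Its values in the Tg cerebellum at 5 weeks were 2.23, 2.38 and 2.23 FPKM in WT and 1.19, 1.30 and 1.24 in Tg. At 12 weeks it stood at 2.55, 2.61 and 2.30 in WT and 0.640, 0.805 and 0.959 in Tg. Groups did not overlap at either age, and Col5a1 fell by 0.83 ± 0.09 on the log2 scale at 5 weeks (SE, adjusted p = 0.000586) and by 1.53 ± 0.16 at 12 weeks (adjusted p = 0.00106), to 0.545 and 0.322 of the WT mean. In the KI cerebellum the values were 2.06, 2.20 and 2.31 in WT and 1.67, 1.74 and 1.67 in KI at 5 weeks, and 1.86, 2.08 and 2.68 in WT and 1.34, 1.76 and 1.54 in KI at 12 weeks. KI libraries lay below WT libraries at both ages, without a call (-0.35, adjusted p = 0.999, and -0.48, adjusted p = 0.118). Inferior olive differences were 0.10 and -0.12 in KI and 0.14 and -0.05 in Tg at 5 and 12 weeks, and none was called (0.07 in Tg at 5 weeks without Tg library 2). Its exons overlap those of 2810430I11Rik (99 bases) and Gm13372 (113 bases) on the opposite strand, which the counting may not have separated.

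**Figure D3:**
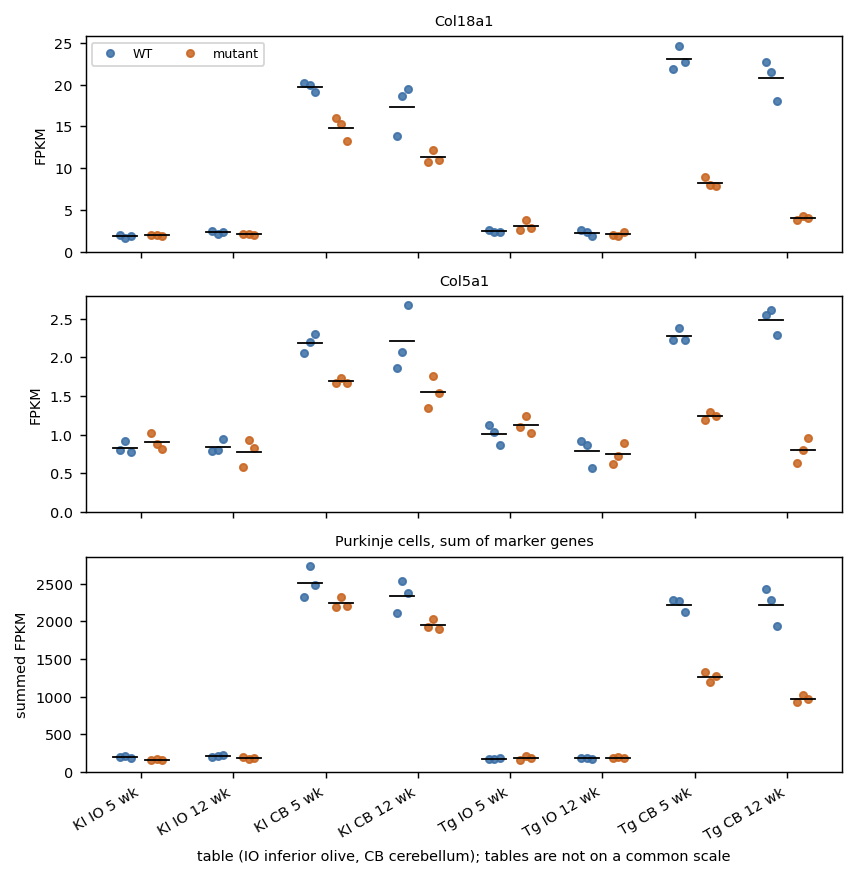
FPKM of Col18a1 and Col5a1 and the summed FPKM of 8 Purkinje cell markers in each library of the 8 tables (points), with lines at the means of 3 WT or 3 mutant libraries. WT and mutant points of both genes are apart in all 4 cerebellum tables, most widely for Col18a1 in Tg at 12 weeks (18.0 to 22.7 FPKM against 3.75 to 4.24).

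Purkinje cell markers moved in the same tables. The summed FPKM of 8 Purkinje markers went from 2117 to 2277 in WT to 1189 to 1322 in Tg cerebellum at 5 weeks and from 1932 to 2434 to 929 to 1020 at 12 weeks, with 8 of 8 called lower at both ages and medians of -0.85 and -1.29. In KI cerebellum the sums were 2319 to 2728 in WT and 2186 to 2316 in KI at 5 weeks, with 8 of 8 lower and 0 called, and 2109 to 2529 and 1891 to 2026 at 12 weeks, with 8 lower and Pcp2 called. No marker on the list was listed at 0 in all libraries of a table. The part of these markers in the Col18a1 and Col5a1 results was not tested, and in whole tissue fewer cells of a type cannot be told apart from less RNA per cell. Col18a1 changed by more than the markers' median in both Tg tables. Col5a1 changed by less than that median at 5 weeks (-0.83 against -0.85) and by more at 12 weeks (-1.53 against -1.29). Granule neuron markers summed to 1365 to 1416 FPKM in WT and 1330 to 1398 in Tg at 5 weeks, and to 1119 to 1353 and 979 to 1045 at 12 weeks.

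The type I chains of meninges and vessels were higher in Tg cerebellum at 12 weeks. Col1a1 (chr11:94936224-94953042) and Col1a2 (chr6:4504814-4541544) encode the chains of type I collagen, and Col16a1 (chr4:130047840-130099283) a fibril-associated chain, each on the plus strand. Col1a1 rose from 3.09, 3.25 and 2.95 FPKM in WT to 4.12, 4.68 and 4.54 in Tg (0.51 ± 0.09, SE, ratio 1.44, adjusted p = 0.0149). Col1a2 rose from 6.80, 8.07 and 6.12 to 9.25, 10.0 and 10.9 (0.52 ± 0.11, adjusted p = 0.0295). Col16a1 rose from 2.00, 2.74 and 2.56 to 3.30, 4.11 and 3.99 (0.63 ± 0.14, adjusted p = 0.038). In each of the 3 genes the lowest Tg library lay above the highest WT library, as in 6 of 27 members and 12.3% of all genes. The calls leaned on single libraries. The adjusted p of Col1a1 was 0.0551 without WT library 1, 0.0792 without Tg library 2 and 0.0583 without Tg library 3. That of Col1a2 was 0.106, 0.0997 and 0.0990 without the same libraries and 0.0569 without WT library 3, and that of Col16a1 was 0.0992, 0.139, 0.124 and 0.0577, so that none of the 3 calls held in every such fit. The type III chain Col3a1, which co-assembles with type I, stood at 1.92, 2.46 and 1.92 in WT and 2.64, 2.88 and 3.26 in Tg, and the type VI chain Col6a2 at 1.60, 2.43 and 1.71 and at 2.61, 2.83 and 2.84. Groups did not overlap for either gene, and neither was called (0.46, adjusted p = 0.0821, and 0.53, adjusted p = 0.0891), although Col6a2 was called without WT library 2 (0.71, adjusted p = 0.0191).

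Over the list of meningeal fibroblast collagens (Col1a1, Col1a2, Col3a1, Col5a1, Col5a2, Col6a1, Col6a2, Col6a3, Col12a1, Col13a1 and Col14a1), 7 of the 10 tested in the Tg cerebellum at 12 weeks were higher and 3 lower, with a median of 0.21 beside -0.02 for all genes, of which 45.5% were above 0. At 5 weeks it was again 7 higher and 3 lower, with a median of 0.19 and 47.8% of all genes above 0, and none of the 7 was called. Nearest to a call at 5 weeks were Col6a1 (2.70, 3.04 and 2.96 FPKM in WT, 4.11, 3.86 and 3.42 in Tg, log2 difference 0.37, adjusted p = 0.0528), Col12a1 (0.38, adjusted p = 0.177) and Col6a2 (0.48, adjusted p = 0.185). Single libraries decided here as well, since leaving out Tg library 3 gave calls for Col6a1 (0.0252) and Col6a2 (0.0354), leaving out WT library 2 a call for Col12a1 (0.0471), and leaving out Tg library 1 calls for Col16a1 (0.0427) and Col27a1 (0.0470). In the KI cerebellum the same list was 3 higher and 6 lower at 5 weeks (median -0.08, 49.3% of all genes above 0) and 2 higher and 7 lower at 12 weeks (median -0.03, 53.6% above 0). Without WT library 1 of that table, the library with the high medulla markers, the direction turned to 7 higher and 2 lower (median 0.13), and leptomeningeal markers, described below, went from 6 higher and 6 lower to 11 higher and 1 lower.

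In the inferior olive these collagens were higher in mutants of both models at 5 weeks, without a call. All 9 tested in KI were higher (median 0.28, with 47.6% of all genes above 0) and 8 of 9 in Tg (median 0.31, with 48.1% above 0). The groups did not overlap for 3 of the 9 in KI, against 5.24% of all genes higher without overlap, and for 5 of the 9 in Tg, against 5.99%. Col1a1 had its largest change here, from 3.39, 4.28 and 3.28 FPKM in WT to 5.90, 5.30 and 5.74 in KI (0.62 ± 0.12, SE, adjusted p = 0.311) and from 4.60, 2.79 and 3.29 to 6.59, 4.76 and 5.10 in Tg (0.62, adjusted p = 0.6). KI libraries lay above WT, Tg libraries did so too by a narrow gap between 4.60 and 4.76, and without WT library 2 the KI change was 0.74 and was called (adjusted p = 0.0399). Col6a1 likewise had its largest change in KI, where WT held 2.16, 2.64 and 2.03 and KI 3.33, 3.32 and 3.36 (0.54, adjusted p = 0.38).

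Col3a1 (chr1:45311538-45349706, plus strand) had the smallest unadjusted p of any member in an inferior olive table. In Tg at 5 weeks its FPKM was 3.65, 3.67 and 4.12 in WT and 5.60, 6.11 and 6.57 in Tg, a ratio of 1.60 with clear separation. Its log2 fold change of 0.66 ± 0.08 ranked 2 of 13708 genes by p, and its adjusted p was 0.123. In KI at 5 weeks it was 2.99, 5.21 and 2.98 in WT and 4.54, 4.81 and 5.03 in KI, where WT library 2 was the highest of the 6. Leaving out Tg library 2, which held the cerebellar markers, 7 members remained at an unadjusted p below 0.05, all higher, in place of 8, Col3a1 was at 0.66 and the median of the meningeal list was 0.21. At 12 weeks the list was 6 higher and 3 lower in KI (median 0.08, 47.3% of all genes above 0) and 7 higher and 3 lower in Tg (median 0.13, 48.4% above 0), and the difference between ages was not called for Col1a1 in KI (-0.48, 95% interval -0.97 to 0.01, adjusted p = 0.970).

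**Figure D4:**
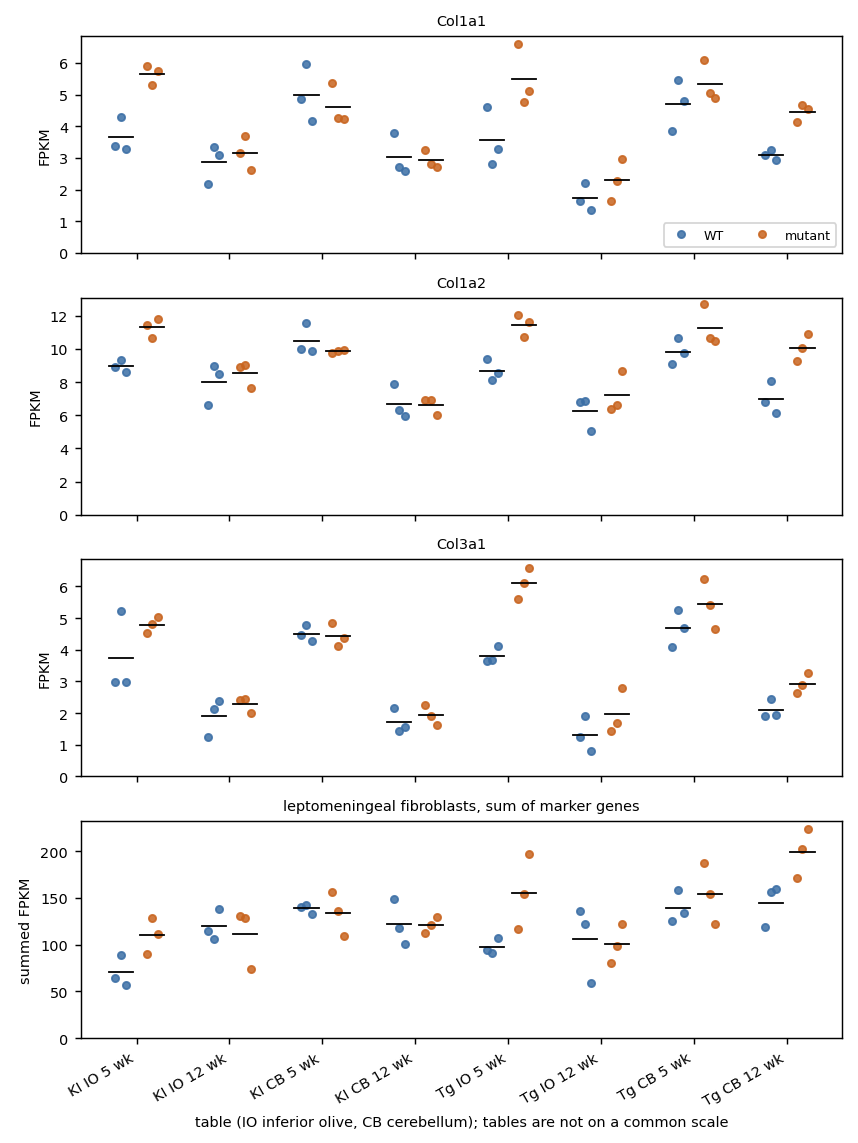
FPKM of Col1a1, Col1a2 and Col3a1 and the summed FPKM of 12 leptomeningeal fibroblast markers in each library of the 8 tables (points), with lines at the means of 3 WT or 3 mutant libraries. Groups do not overlap for Col3a1 in the Tg inferior olive at 5 weeks (3.65 to 4.12 FPKM in WT, 5.60 to 6.57 in Tg) or for Col1a1 in the Tg cerebellum at 12 weeks (2.95 to 3.25 and 4.12 to 4.68).

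Compared group against group, markers of leptomeningeal fibroblasts were also higher in the tables where these collagens were higher. The summed FPKM of 12 such markers, none of them a collagen and none at 0 throughout a table, was 57.3 to 88.9 in WT and 90.1 to 128 in KI inferior olive at 5 weeks, with 11 of 11 tested higher and 0 called. In the Tg inferior olive at 5 weeks it was 91.0 to 107 in WT and 116 to 197 in Tg, with 11 of 11 higher and 0 called. It was 119 to 159 in WT and 171 to 224 in Tg in the cerebellum at 12 weeks, with 11 of 12 higher and Fmod (0.55) and Slc13a4 (0.58) called. In the Tg cerebellum at 5 weeks 11 of 12 were higher too, with a median of 0.14 and 0 called. The ranges of the sum overlapped there, at 125 to 158 in WT and 122 to 187 in Tg. Pericyte and smooth muscle markers were 9 of 9 higher in Tg cerebellum at 12 weeks (median 0.20, sums of 74.3 to 101 in WT and 96.6 to 99.1 in Tg, 0 called), and 7 of 9 higher in the Tg inferior olive at 5 weeks, 4 of them without overlap. How much meninges each dissection carried was not measured, and the part of these markers in the collagen results was not tested.

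Markers of other cells moved in the same tables. In the Tg cerebellum at 12 weeks, oligodendrocyte markers were 6 of 6 higher without overlap (1637 to 2071 FPKM in WT, 2188 to 2742 in Tg, 0 called). Microglial markers were 5 of 5 higher (33.9 to 52.7 and 59.7 to 78.5), with Cx3cr1 and Csf1r called, and 4 of 5 astrocyte markers were higher, with calls for Gfap, Slc1a3 and Gja1. In the inferior olive at 5 weeks, choroid plexus markers were 10 of 10 higher in Tg (1021 to 1557 in WT, 1453 to 3997 in Tg, median 0.96) and 7 of 7 tested were higher in KI (median 2.19), with 0 called in either. Their part in the collagen results was not tested.

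Libraries of a group were also compared by which was the highest. Of 16 groups of 3 libraries, Col1a1 and Col1a2 shared their highest library in 13, Col1a2 and Col3a1 in 12, and Col1a1 and Col6a1 in 11. With the leptomeningeal sum the highest library was shared in 7 for Col1a1, 7 for Col1a2 and 11 for Col3a1, and in inferior olive in 2, 2 and 5 of 8. With the pericyte and smooth muscle sum it was shared in 10, 9 and 11 of 16. Sums of other cells reached similar counts for some genes. The highest library was shared in 8 of 16 for Col1a1 with microglial, Col1a2 with astrocyte and Col3a1 with choroid plexus markers. With the granule neuron sum it was shared in 3, 2 and 1 for Col1a1, Col1a2 and Col3a1.

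The vascular basement membrane chains had no called change. Their median log2 difference over 3 genes was -0.05 in the Tg inferior olive at 5 weeks, with 2 of 3 lower. Without Tg library 2 it was -0.09, with 3 of 3 lower. The median was 0.03 in the Tg cerebellum at 12 weeks, where 3 of 3 were higher, and -0.25 in the KI cerebellum at 12 weeks, where 3 of 3 were lower. Without WT library 1 of the KI table the median was -0.16, with 2 of 3 lower. Col4a1 (chr8:11198423-11312826) and Col4a2 (chr8:11312805-11449287), which assemble together, and Col15a1, a multiplexin of vascular basement membranes, were tested in all 8 tables and called in none by limma. At an unadjusted p below 0.05 there were 2 such results, Col4a1 in the Tg cerebellum at 5 weeks (14.6% of all genes) and Col15a1 in the KI cerebellum at 12 weeks (24.4%), and the latter was lost without WT library 1 (unadjusted p = 0.0618). Col4a1 stood at 7.34, 7.97 and 7.23 FPKM in WT and 6.40, 6.46 and 6.31 in Tg at 5 weeks, its largest change (-0.23, adjusted p = 0.0569), with every Tg library below every WT library. At 12 weeks it spread widely within both groups, at 3.05, 6.18 and 3.33 in WT and 5.65, 3.30 and 3.60 in Tg, and the difference of 0.03 had a 95% interval of -0.64 to 0.70, which holds a change as large as that of Col1a1. Col4a2 had its largest difference in the KI cerebellum at 12 weeks, where WT held 4.01, 3.12 and 3.54 and KI 3.17, 3.19 and 2.58, with overlap (-0.25, 95% interval -0.53 to 0.03, and -0.16 without WT library 1). Within groups, Col4a1 and Col4a2 had the same highest library in 13 of 16, while Col1a1 and Col4a1 did so in 7. Endothelial markers summed to 144 to 202 FPKM in WT and 159 to 210 in Tg cerebellum at 12 weeks.

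Of the 5 members listed as neuronal (Col18a1, Col19a1, Col23a1, Col24a1 and Col25a1), 3 were tested in each cerebellum table at 12 weeks. Of these 3, Col18a1 and Col25a1 were lower in KI, and Col18a1 and Col19a1 were lower in Tg, so only Col18a1 was lower in both models. Col19a1 (chr1:24261890-24587472, minus strand), a fibril-associated chain made by interneurons, rose from 1.89, 2.17 and 2.51 FPKM in WT to 3.23, 3.52 and 3.26 in KI (0.59 ± 0.11, SE, ratio 1.52, adjusted p = 0.0278). The groups did not overlap, and the adjusted p was 0.108, 0.119 and 0.102 without KI library 1, 2 or 3. In Tg cerebellum at the same age Col19a1 had group means of 0.992 in WT and 0.76 in Tg, without a call (-0.36, adjusted p = 0.357). Col9a2 (chr4:121039385-121055322, plus strand), a type IX chain, fell from 4.97, 4.39 and 4.72 to 3.79, 3.66 and 3.79 (-0.32 ± 0.07, adjusted p = 0.0468). It was lower in 3 of 3 KI libraries than in any WT library, at a ratio of 0.799, and lost its call without WT library 1 (0.0517), WT library 3 (0.121) or KI library 1 (0.163), 2 (0.168) or 3 (0.139).

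Col25a1 (chr3:130131501-130599877, plus strand) had the largest fold difference of any member in that table without a call. WT libraries held 4.12, 1.11 and 1.67 FPKM and KI libraries 0.605, 0.577 and 0.584. KI libraries were alike and all below WT, with a ratio of 0.256, while WT library 1, which also had the high medulla markers, was well above the other WT libraries. The log2 fold change was -1.59 ± 0.40 (SE, 95% interval -2.53 to -0.66, adjusted p = 0.0607), and leaving out WT library 1 gave -1.08 with a call (adjusted p = 0.0149), as did leaving out WT library 2 (-1.99, adjusted p = 0.0196). Over the 25 members tested in this table, 8 were higher and 17 lower. Without WT library 1 the same 25 split into 14 higher and 11 lower. Col7a1, higher, then passed the floor too, so 26 were tested, with Col18a1, Col19a1, Col25a1 and Col27a1 called. The shares of all genes called or above 0 in that fit are not given here, so these counts have no background beside them. Oligodendrocyte markers were also highest in WT library 1, at a sum of 3025 FPKM, and lower in KI (1724 to 1757) than in WT (1991 to 3025). Their part and that of the medulla markers in the Col25a1 result were not tested. Col11a1, also a collagen with higher values in inferior olive than in cerebellum, stood at 0.912, 0.545 and 0.563 in WT and 0.307, 0.385 and 0.260 in KI, under the floor of the test.

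Col9a3 (chr2:180597790-180622189, plus strand), although abundant, varied widely between libraries of a group in 3 of the 4 inferior olive tables. In KI at 5 weeks it stood at 5.37, 5.97 and 6.78 FPKM in WT and 4.88, 9.47 and 9.44 in KI. At 12 weeks it stood at 21.5, 7.05 and 13.4 in WT and 12.6, 11.4 and 4.14 in KI, with a difference of -0.59 and a 95% interval of -1.70 to 0.52. In Tg at 12 weeks it stood at 12.8, 9.33 and 6.20 in WT and 7.21, 6.80 and 3.86 in Tg (-0.65, 95% interval -1.34 to 0.04). That interval is from the fit without a replicate block. Same-numbered libraries deviated together in this table, and each Tg library lay below the WT library of its number. With a replicate block Col9a3 was not called there either. Groups overlapped in these 3 tables. In Tg at 5 weeks the spread was smaller, with 9.49, 8.93 and 11.3 in WT and 11.2, 10.8 and 15.5 in Tg, again with overlap and no call (0.32 ± 0.14, SE, adjusted p = 0.747, and 0.42 without Tg library 2). The summed FPKM of choroid plexus epithelium markers (10 listed, of which 9 had an entry of their own in KI at 5 weeks) spread in the same libraries, at 226, 410 and 202 in WT and 208, 1843 and 1941 in KI at 5 weeks, and at 5460, 1205 and 3208 in WT and 3352, 2439 and 169 in KI at 12 weeks. The library with the highest choroid plexus sum was also the one with the highest Col9a3 in 6 of 8 inferior olive groups and in 5 of 8 cerebellum groups. For the granule neuron sum these counts were 4 and 5. The part of choroid plexus tissue in the Col9a3 values was not tested. In the Tg cerebellum at 12 weeks these markers summed to 753 to 1669 in WT and 1745 to 2453 in Tg, with 9 of 9 tested higher and 0 called.

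**Figure D5:**
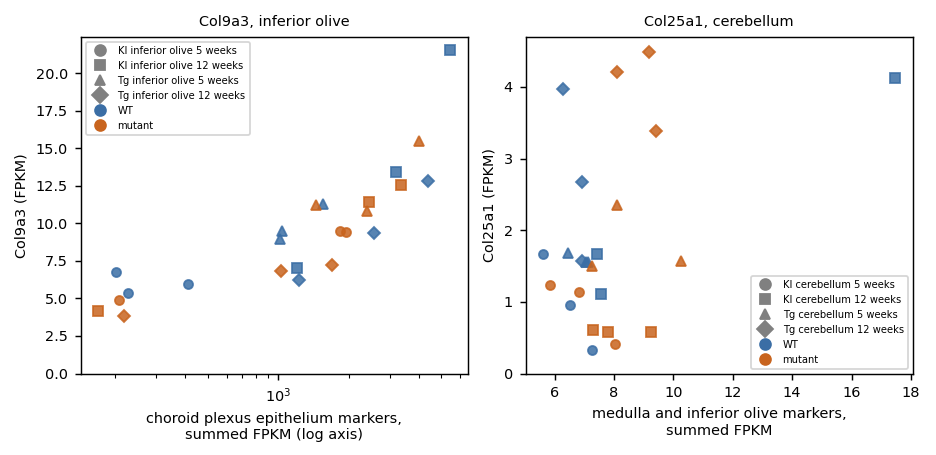
Left, Col9a3 FPKM against the summed FPKM of choroid plexus markers (log axis) in inferior olive libraries; right, Col25a1 FPKM against the summed FPKM of medulla markers in cerebellum libraries, with 1 point per library, colour for genotype and shape for table. The KI inferior olive at 12 weeks spreads from 4.14 to 21.5 FPKM of Col9a3, and WT library 1 of the KI cerebellum at 12 weeks stands alone at 17.5 FPKM of medulla markers and 4.12 of Col25a1.

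Of the other members, the cartilage chain Col2a1 was lower in Tg cerebellum without overlap, at 1.75, 2.37 and 1.90 FPKM in WT and 1.60, 1.56 and 1.29 in Tg at 5 weeks (-0.41, adjusted p = 0.186). At 12 weeks it stood at 1.26, 1.02 and 1.52 in WT and 0.300, 0.528 and 0.570 in Tg, where the Tg mean was under the floor. With the floor required in only 1 genotype its change was -1.29 (adjusted p = 0.0240). Col11a2, a type XI chain, had the only unadjusted p below 0.05 among members in KI inferior olive at 12 weeks, with group means of 6.17 in WT and 5.23 in KI and no overlap (-0.24, adjusted p = 0.113). The epithelial transmembrane chain Col17a1 was higher in mutants in the 4 cerebellum tables, by 0.19 to 0.35, with no call. The lowest of these, in the KI cerebellum at 12 weeks, was 0.08 without WT library 1. Col4a5, a chain of other basement membranes, was higher in the Tg inferior olive at 5 weeks, at group means of 2.3 in WT and 2.9 in Tg without a call (0.31, adjusted p = 0.612). Members under the floor throughout were low in both tissues, such as the cartilage chain Col10a1, with WT means of 0.0212 to 0.0518 FPKM, and Col6a4, at 0.0132 to 0.0888.

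Whether effects differed between ages, models or tissues was tested as a difference of the mutant to WT log2 fold changes of 2 tables. The Col18a1 effect in Tg cerebellum was larger at 12 than at 5 weeks by -0.86 ± 0.12 (SE, adjusted p = 0.0308, with 0.0853% of all genes called), although the call was lost in 9 of the 12 fits that left out 1 library. The adjusted p in these 9 was 0.125, 0.0574 and 0.103 for WT libraries 1, 2 and 3 and 0.10 and 0.0621 for Tg libraries 1 and 2 at 5 weeks, and 0.0602 and 0.0550 for WT libraries 1 and 2 and 0.0662 and 0.0746 for Tg libraries 1 and 3 at 12 weeks. For Col5a1 the difference between ages was -0.71 and was not called (adjusted p = 0.126). No member was called for age in KI cerebellum, KI inferior olive or Tg inferior olive, where 0% of all genes were called by limma in each. With a replicate block, which the deviations bear out in the 12-week but not the 5-week Tg inferior olive table, Col9a3 was called for age in Tg inferior olive (-0.97, adjusted p = 0.0244).

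Between models in cerebellum, the Tg effect on Col18a1 was beyond the KI effect by -1.06 at 5 weeks (adjusted p = 0.000499, 0.863% of all genes called) and by -1.74 at 12 weeks (adjusted p = 0.000221, 11.8% called). For Col5a1 the difference was -1.06 at 12 weeks (adjusted p = 0.0145) and -0.47 at 5 weeks without a call (adjusted p = 0.126). Col16a1 (0.95, adjusted p = 0.0200), Col19a1 (-0.95, adjusted p = 0.0254) and Col25a1 (2.22, adjusted p = 0.0249) also differed between models at 12 weeks, with estimates of opposite sign in the 2 tables. Col16a1 was at -0.32 in KI (-0.19 without WT library 1) and 0.63 in Tg, Col19a1 at 0.59 and -0.36, and Col25a1 was lower in KI but at group means of 2.74 FPKM in WT and 4.03 in Tg. These 3 were not stable to single libraries. Col16a1 was lost without KI library 1 (0.0539) or Tg library 3 (0.0504). Col19a1 was lost without WT library 1 of the KI table (0.0577), WT library 1 of the Tg table (0.0618), KI library 1 (0.0555) or KI library 2 (0.0657), and Col25a1 without WT library 1 of the Tg table (0.0600), KI library 1 (0.0547), KI library 2 (0.0560) or Tg library 2 (0.0517). The type I chains did not pass, at 0.54 for Col1a1 (adjusted p = 0.0769) and 0.53 for Col1a2 (adjusted p = 0.0619). In the inferior olive at 5 weeks the models' effects on Col1a1 differed with a 95% interval of -0.52 to 0.52, and those on Col3a1 by 0.26 (-0.26 to 0.78). No member was called between models in the inferior olive at 5 weeks (0.0153% of all genes) or 12 weeks (0.213%).

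Between tissues of Tg mice, the cerebellum effect lay below the inferior olive effect by -1.78 for Col18a1 (adjusted p = 2.8e-05) and -0.97 for Col5a1 (adjusted p = 0.00198) at 5 weeks, with 2.51% of all genes called. At 12 weeks the differences were -2.20 (adjusted p = 1.8e-05) and -1.48 (adjusted p = 0.00687), with 4.89% called. With a replicate block Col16a1 was called as well (0.62, adjusted p = 0.0132), against 0.0502 without it. Same-numbered libraries did not deviate together in the Tg cerebellum at 12 weeks (correlations of -0.321 to 0.0553). Col16a1 was also called with a pseudocount of 1 FPKM or median ratio scaling (adjusted p = 0.0499 in each). Leaving out WT library 2 (0.0323), WT library 3 (0.0444) or Tg library 1 (0.0252) of that cerebellum table gave a call too. In KI mice no member differed between tissues by limma, with 0% of all genes called at 5 weeks and 2.01% at 12 weeks. The KI estimates for Col18a1 were -0.49 at 5 weeks (adjusted p = 0.707) and -0.45 at 12 weeks (adjusted p = 0.205), in the direction of the Tg estimates. Without WT library 1 of the KI cerebellum at 12 weeks, the library with the high medulla markers, 2 members were called, Col18a1 (-0.60, adjusted p = 0.0141) and Col25a1 (-1.07, adjusted p = 0.0113).

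Few genes that make, bind or degrade collagen were called, against background shares of 1.53% of all genes in KI inferior olive at 12 weeks, 5.75% in KI cerebellum at 12 weeks, and 4.16% and 7.58% in Tg cerebellum at 5 and 12 weeks. Of 28 genes for chain modification, folding and secretion, between 18 and 20 were tested in a table. Called were Adamts3, a procollagen N-proteinase, lower in Tg cerebellum at both ages (-0.36, adjusted p = 0.0108, and -0.60, adjusted p = 0.0208), the related Adamts2 lower in KI inferior olive at 12 weeks (-0.26, adjusted p = 0.0476), and in KI cerebellum at 12 weeks the prolyl hydroxylase subunit P4ha2, lower (-0.56, adjusted p = 0.0262), and the lysyl hydroxylase Plod2, higher (0.41, adjusted p = 0.0176). Of 10 genes for degradation and its inhibitors, the metalloproteinase inhibitors Timp2 (0.55, adjusted p = 0.0423) and Timp3 (0.48, adjusted p = 0.00448) were called higher in Tg cerebellum at 12 weeks, the table in which type I chains rose. Collagen receptors (11 genes, 5 to 7 tested) and the basement membrane partners, laminins, nidogens and perlecan among them (11 genes, 10 or 11 tested), had no call in any table. In the Tg inferior olive at 5 weeks, where 48.1% of all genes were above 0, 16 of 20 processing genes and 9 of 10 basement membrane partners had higher values in Tg, and without Tg library 2 the counts were 15 and 9. Among genes tested in the Tg cerebellum at 12 weeks, 6 of 6 receptors and 9 of 11 basement membrane partners had higher values, with medians of 0.20 and 0.16, where 45.5% of all genes were above 0.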

How the data were processed

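Reads from 75 bp paired-end libraries of polyadenylated RNA were aligned by the authors to mm10 with TopHat2 2.1.0, and the deposited values are gene FPKM from Cuffnorm (Cufflinks 2.2.1), normalized within each table of 6 libraries. Cuffdiff columns in the same tables (group averages, log2 fold changes, p and q values) hold the authors' comparisons and were not used. Groups follow the sample labels. Where a name occurred more than once, the entry with the highest mean was kept. Log2(FPKM + 0.1) was fitted with limma 3.58.1 (R 4.3.3, trended empirical Bayes) over every gene whose group means both reached 0.5 FPKM, with Benjamini-Hochberg adjustment, after a test on simulated data. Differences between ages, models or tissues were fitted over 12 libraries, taken as independent. Whether cerebellum and inferior olive came from the same mice is not given in the sources used here, so tissue p-values carry that limit. Python 3.11.15 made the summaries. Pseudocounts of 1 and 0.01 FPKM, other floors, median ratio scaling, a replicate block and leaving out each library were tried. The authors report 3 males per genotype, compared with WT littermates. The 3 libraries of a group were therefore taken as separate mice, and p-values measure the spread between them. Members, marker lists and other lists were chosen with earlier results of these data known. FPKM per library is given for members called in any table and for Col1a1, Col1a2, Col3a1, Col4a1, Col4a2, Col6a1, Col18a1 and Col25a1 in the table of their largest change. Per-library values of other members or tables were chosen after they were seen. Same-numbered libraries deviated together in the Tg inferior olive at 12 weeks (correlations of 0.118 to 0.258, 6 of 6 libraries nearest to their own number), which was treated as a pairing. There the fit with a replicate block called 0 members, as did the fit without it.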

Additional observations from a re-analysis of the deposited data

Results flagged for a closer look

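The following members had a mutant to WT log2 fold change that differed between a pair of tables by limma at an adjusted p below 0.05. For Col18a1 in Tg cerebellum, the effect at 12 weeks minus that at 5 weeks was -0.86. The Tg effect minus the KI effect in cerebellum was -1.06 for Col18a1 at 5 weeks, and at 12 weeks it was -1.74 for Col18a1, -1.06 for Col5a1, -0.95 for Col19a1, 0.95 for Col16a1 and 2.22 for Col25a1. The cerebellum effect minus the inferior olive effect in Tg mice was -1.78 for Col18a1 and -0.97 for Col5a1 at 5 weeks, and -2.20 and -1.48 for the same genes at 12 weeks. Fits that left out 1 library were made for each of these results. In some of them the Col18a1 age difference and the Col16a1, Col19a1 and Col25a1 model differences lost their call, as given above. With 3 libraries in a group, no formal test for a single deviating library was made.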

How the results depend on the processing

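Col18a1 and Col5a1 were called lower in Tg cerebellum at both ages under each of 12 alternatives, with a range of -2.43 to -2.11 for Col18a1 at 12 weeks and -1.66 to -0.96 for Col5a1. Of the counts of called members, 280 were within 1.5 times the reported count and 32 were not, and of the named results 267 kept their side of the threshold, 51 lost it and 0 changed sign. With a replicate block, members called became 1 in place of 3 in the KI cerebellum at 12 weeks, 1 in place of 0 in the Tg inferior olive at 5 weeks (Col3a1, adjusted p = 0.0425), 1 in place of 0 for the age difference in Tg inferior olive (Col9a3, -0.97, adjusted p = 0.0244) and 0 in place of 1 for that in Tg cerebellum. Outside the Tg inferior olive at 12 weeks, which enters that age difference together with an unpaired table, the pairing rests on a shared number alone, with correlations between same-numbered libraries from -0.366 to 0.507, and the block changed no other count by over 1.5 times. With a pseudocount of 1 FPKM, 1 member (Col19a1) in place of 0 differed between tissues in KI at 12 weeks. Leaving out 1 library gave 0 to 1 called members in the KI inferior olive at 5 weeks, 0 to 4 in the KI cerebellum at 12 weeks, 2 to 4 and 2 to 6 in the Tg cerebellum at 5 and 12 weeks, 0 to 1 for the age difference in Tg cerebellum, 2 to 7 for the model difference in cerebellum at 12 weeks, and 0 to 2 and 2 to 4 for the tissue difference at 12 weeks in KI and Tg. Causes of these shifts were not tested. The tables hold no counts, so the depth behind low members is unknown, and 9 members were under the floor or in a shared entry in every table. Without a floor on low values, Col6a5 was called in the KI cerebellum at 12 weeks (-0.72, adjusted p = 0.0222).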
